A study of Mus musculus with 4 samples.

Results

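The Rab genes other than Rab3 were chosen by name. Members were the rows of the gene table whose symbol is Rab followed by a number, with or without a letter, or by l and a number, and the Rab3 genes and their regulators were left out. This gave 56 of 23240 rows, made up of 53 numbered Rab genes, counting Rab7l1, and 3 Rab-like genes (Rabl2, Rabl3 and Rabl5). Of the 56, 53 passed the filter on low counts and were tested, and Rab17, Rab19 and Rab44 did not. Total RNA was sequenced from sorted cells of embryonic mouse cortex (day 15.5). Heterozygous Nestin-GFP mice had been crossed with homozygous DCX-mRFP mice, and embryos with both reporters gave the cells of both groups. Neurons were the cells sorted with both colours, and neural progenitor cells (NPCs) were those sorted by the green colour, with 2 duplicate libraries in each group. The reporters take their names from Nestin, an intermediate filament gene of neural progenitors, and Dcx, a microtubule-binding gene of young neurons, so each group is defined by fluorescence and may hold other cells with the same colours. How many embryos were pooled is not given in the sources used here.

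Rab proteins are small GTPases that mark membranes inside the cell. Bound to GTP they sit on a particular organelle or vesicle and recruit effectors, such as motors, tethers and scaffolds. Exchange factors load them with GTP, GTPase-activating proteins switch them off, and GDP dissociation inhibitors lift the inactive form off the membrane. In young neurons, Rab-directed traffic is known for its part in migration and in the delivery of membrane to growing axons and dendrites.

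The libraries held 52611828 to 55615142 counts, and levels are given as CPM (counts scaled to the total of their library, with TMM factors). Changes are log2 values of neurons over NPCs ± standard error, from edgeR's quasi-likelihood test on all 15292 genes that passed the filter, with p-values adjusted over all of them. The sort showed in marker genes. All 9 neuron markers measured were higher in neurons (summed level 9717 and 9913 CPM in neurons, 2454 and 2468 CPM in NPCs), and all 11 radial glia markers were lower (693 and 708 CPM in neurons, 3497 to 3509.8 CPM in NPCs). The neuron markers thus had counts in the NPC libraries as well. The labels do not say whether the duplicates came from separate litters, so the p-values measure only how far these libraries differ, and that spread may be technical. In bulk RNA, fewer cells of a type and less RNA per cell cannot be told apart.

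Most Rab genes with a change moved up in neurons. Of the 53 members tested, 29 (54.7%) were higher in neurons and 12 (22.6%) were lower, beside 35.8% and 36.9% of all genes tested, and 12 did not pass. Members called in either direction made up 77.4%, close to the 72.6% of all genes. The median log2 change of the tested members was 0.23, and that of all genes tested was -0.02. The split depended on the scaling. When libraries were scaled by total count alone, the median of all genes was -0.23, and 22 members were higher in neurons and 19 lower.

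The changes were mostly small. A log2 change under 1.5-fold in size was found for 30 of the 53 members (56.6%, beside 54.4% of all genes tested), and the median size was 0.47, beside 0.50 for all genes. At least 2-fold changes with a call were found for 5 members higher in neurons and 6 lower, 20.8% of those tested, beside 29.9% of all genes (11.5% higher and 18.5% lower). The 5 were Rab9b, Rab40b, Rab33a, Rab15 and Rab6b, and the 6 were Rab20, Rab32, Rab25, Rab7l1, Rab37 and Rab8b. Direction differed with level. Of the 42 members with a mean of at least 5 CPM, 28 were higher and 6 lower, and of the 11 under 5 CPM, 1 was higher and 6 lower. Among all genes tested, those shares were 41.5% and 34.1% at 5 CPM or above, and 21.1% and 44.1% under it. Rab20, Rab25 and Rab38 passed the filter on low counts only through their NPC libraries (13 and 13, 16 and 21, and 13 and 15 counts). In neurons they had 2 and 0, 0 and 7, and 2 and 8 counts, so a call for them could only be as lower. Rab37, with 52 and 45 counts in NPCs, had 14 and 10 counts in neurons, and neuron library 2 was just under the filter's level. It too passed only through its NPC libraries, so a call for it could only be as lower. Rab20, Rab25 and Rab37 are among the 6 lower under 5 CPM and among the 6 that fell by 2-fold or more. The 56 members together had 5461 and 5266 CPM in neurons, against 4204 and 4233 CPM in NPCs, and the most abundant gene, Rab2a, held 11.8% of the total.

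**Figure D1:**
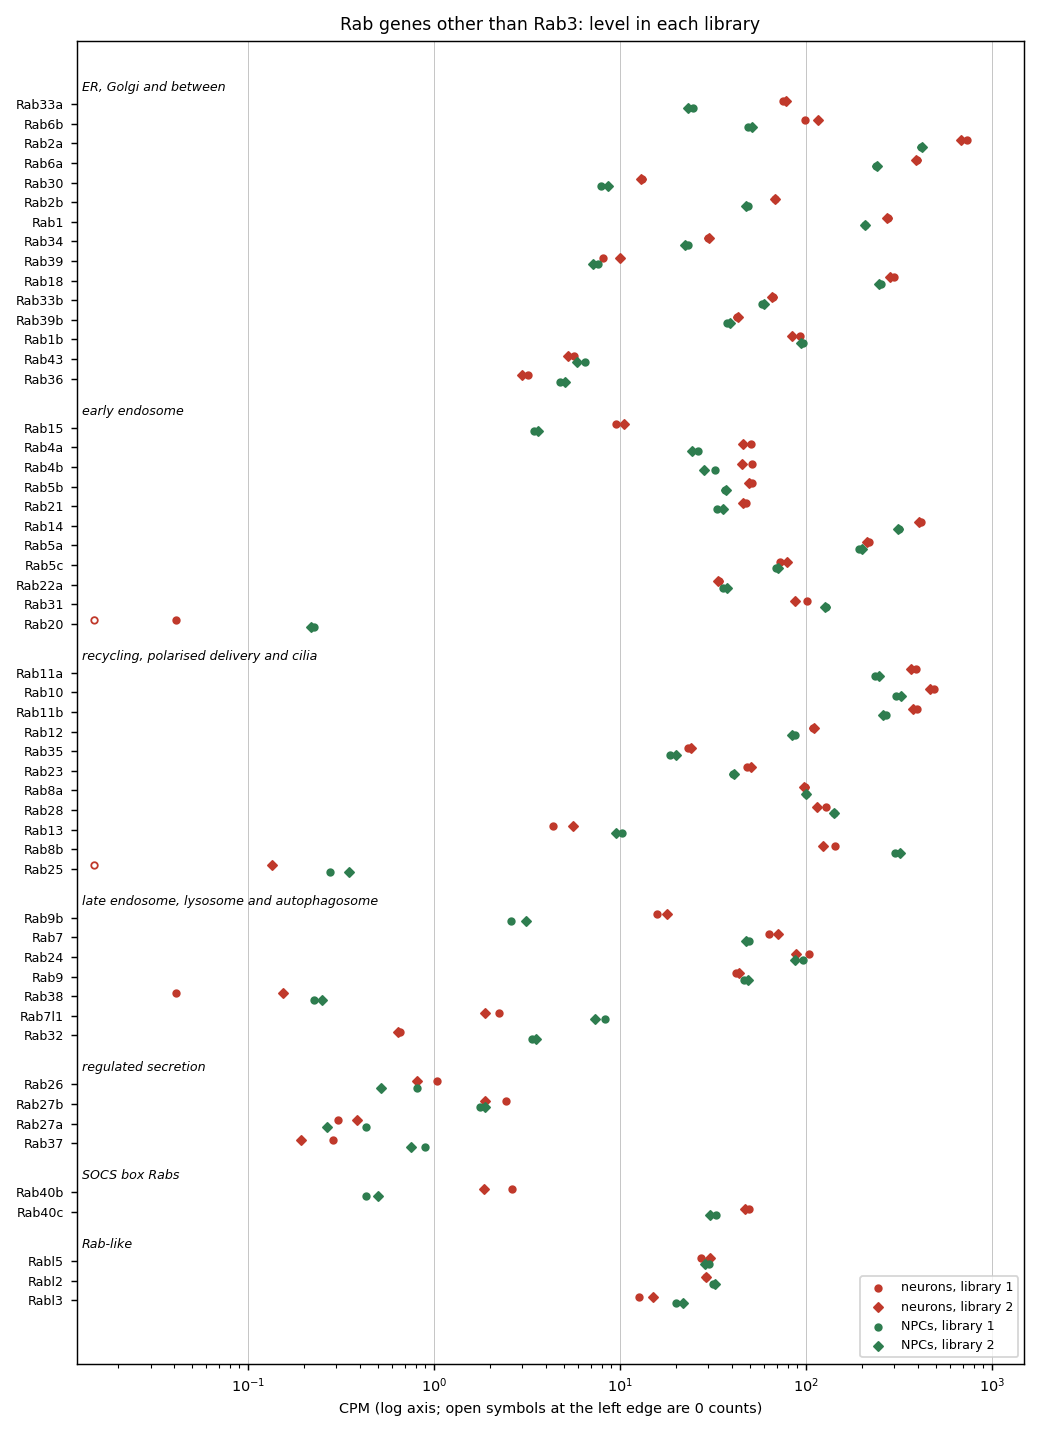
Level of each of the 53 tested Rab members in each library, in CPM on a log axis, grouped by the compartment or process the protein is known for. Red symbols are the neuron libraries and green symbols the NPC libraries, with circles for library 1 and diamonds for library 2. Most abundant members, such as Rab2a and Rab10, lie to the right in neurons, and Rab8b lies to the left.

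Levels of different genes were compared per length, as mean CPM per kilobase of merged exon from GENCODE M21, an annotation of another build than the one the counts were made on. On this scale the same 4 genes held the first places in both groups, although in another order. Rab2a was first, at 331 ± 17.3 CPM per kilobase in neurons and 197 ± 1.95 in NPCs (SD, n = 2 each). Rab11a followed in neurons at 164 ± 7.21, and Rab10 (136 ± 4.21) and Rab14 (134 ± 2.29) did not differ beyond their spread. In NPCs, Rab11a (103 ± 3.33) and Rab14 (102 ± 0.487) did not differ beyond theirs, and Rab10 was at 89.9 ± 3.30. Rab33a was in place 10 of 56 in neurons and place 20 in NPCs, the members being ordered by this level. Rab8b was in place 18 in neurons and place 10 in NPCs.

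Rabs of the endoplasmic reticulum and Golgi were mostly higher in neurons. Of the 16 in this group, 15 were tested, 12 were higher, 1 (Rab36) was lower and 2 (Rab1b and Rab43) did not pass, which is 80.0% higher and 6.67% lower beside 35.8% and 36.9% of all genes. The median log2 change was 0.40, beside -0.02 for all genes. Rab33a, which in rat neurons is known from vesicles that carry membrane into growing axons, had 75.6 and 78.4 CPM in the neuron libraries, against 24.7 and 23.3 CPM in the NPC libraries. Its log2 change was 1.68 ± 0.06 (adjusted p = 4.92e-13). The neuron values lay far above both NPC values and close to each other. Rab6b, a relative of the Golgi GTPase Rab6a that is known to be enriched in brain, had 99.6 and 117 CPM in neurons, against 49.3 and 51.7 CPM in NPCs. It rose by a log2 change of 1.10 ± 0.07 (adjusted p = 3.97e-10), and its neuron libraries differed more than its NPC libraries did.

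Rab2a, which acts in traffic between the endoplasmic reticulum and the Golgi, was the member with the most counts. It had 732 and 680.3 CPM in neurons, against 417 and 423 CPM in NPCs, a log2 change of 0.75 ± 0.06 (adjusted p = 2.84e-09). The groups did not overlap, which was also true of 86% of all genes tested and 48 of the 53 tested members. Rab6a, which carries Golgi vesicles in both directions, averaged 395 ± 2.88 CPM in neurons and 240.0 ± 2.00 CPM in NPCs (0.72 ± 0.05). Rab1, listed by RefSeq as Rab1a and needed for the step from endoplasmic reticulum to Golgi, averaged 275 ± 1.87 CPM in neurons and 208 ± 0.324 CPM in NPCs (0.40 ± 0.05). Its paralog Rab1b averaged 88.5 ± 6.32 and 95.6 ± 0.984 CPM and did not pass (-0.11 ± 0.06, adjusted p = 0.104). Rab1b passed as lower without neuron replicate 1 (-0.18, edgeR adjusted p = 0.00255), by total count alone (-0.32) and with a filter of 5 CPM in 2 libraries (-0.150). Rab30, a Golgi protein, and Rab2b had log2 changes of 0.66 ± 0.10 and 0.50 ± 0.06.

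The other changes in this group were smaller. Rab34, known from Golgi-dependent lysosome positioning and from cilia, had a log2 change of 0.40 ± 0.07. Rab18, of the endoplasmic reticulum and lipid droplets, averaged 292 ± 11.1 CPM in neurons and 252 ± 5.02 CPM in NPCs (0.21 ± 0.05), and its call was lost without NPC replicate 2 (0.19, edgeR adjusted p = 0.0667). Scaled by total count alone, its change was 0.00538 (adjusted p = 0.932). Rab33b, which binds the autophagy protein Atg16l1, and Rab39b, whose human counterpart is a gene of X-linked intellectual disability, were higher in neurons by 0.17 ± 0.06 and 0.16 ± 0.06, and by total count alone they turned to -0.0389 and -0.0449. Without NPC replicate 1 or 2 their calls were lost as well (Rab33b 0.149 and 0.186, Rab39b 0.138 and 0.185). Rab39b also lost its call in DESeq2 (0.1705, adjusted p = 0.0703) and with the filter of 5 CPM (0.1248, edgeR adjusted p = 0.0811). Rab39 had 8.09 and 10.1 CPM in neurons, against 7.66 and 7.21 CPM in NPCs (0.29 ± 0.12). Its call was lost without either NPC library (0.33 and 0.25) and without neuron replicate 2 (0.13), in DESeq2 (0.298), with the filter of 5 CPM (0.253) and by total count alone (0.0838). Rab36, also a Golgi protein, fell to 3.09 ± 0.149 CPM in neurons, against 4.92 ± 0.225 CPM in NPCs. Rab43 had a change of -0.17 ± 0.13 that did not pass, and passed as lower by total count alone (-0.377). Rab19 had 0 and 2 counts in neurons and 4 and 3 counts in NPCs and was not tested.

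**Figure D2:**
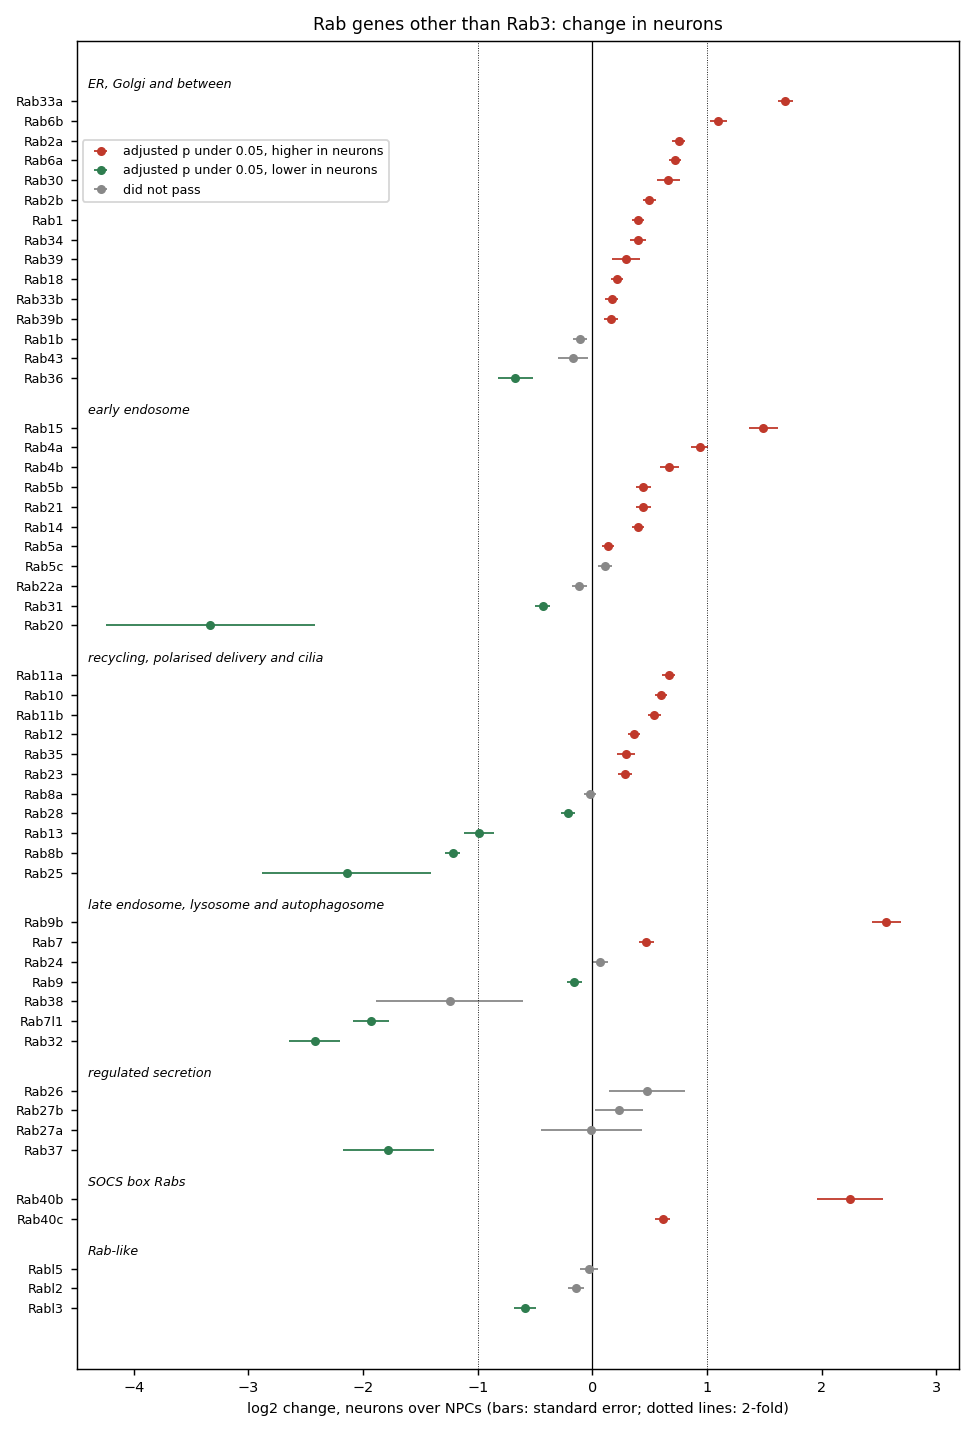
Log2 change of each tested Rab member, neurons over NPCs, with bars for the standard error and dotted lines at 2-fold. Red points passed as higher in neurons, green points as lower in neurons and grey points did not pass. The Golgi and early endosome groups lie mainly to the right of 0, and the wide bars belong to members with few counts, such as Rab20.

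Rabs of early endosomes were also mainly higher. Of 12, 11 were tested, 7 were higher, 2 (Rab31 and Rab20) were lower and 2 did not pass, the median change being 0.39. The shares were 63.6% higher and 18.2% lower, beside 35.8% and 36.9% of all genes. Rab20 counts among the lower, although it passed the filter on low counts only through its NPC libraries. Rab15, an endosomal Rab that slows early steps of endocytosis in cultured cells, had 9.52 and 10.5 CPM in neurons, against 3.47 and 3.65 CPM in NPCs, a log2 change of 1.49 ± 0.13 (adjusted p = 1.35e-08). Its groups were well apart, at levels below those of most early endosome Rabs. Rab4a and Rab4b, which return receptors quickly to the surface, rose together. Rab4a averaged 48.4 ± 3.21 CPM in neurons and 25.3 ± 1.24 CPM in NPCs (0.93 ± 0.07), and Rab4b averaged 48.6 ± 4.14 CPM in neurons and 30.5 ± 3.11 CPM in NPCs (0.67 ± 0.08).

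The 3 Rab5 genes, which drive fusion of early endosomes, were not alike in their calls. Rab5b averaged 50.5 ± 1.22 CPM in neurons and 37.1 ± 0.472 CPM in NPCs (0.44 ± 0.06). Rab5a, the most abundant of them in CPM, averaged 217 ± 4.31 CPM in neurons and 197 ± 4.81 CPM in NPCs (0.14 ± 0.05, adjusted p = 0.028), but scaling by total count alone turned it to -0.0694. Its call was also lost without NPC replicate 1 (0.11) or 2 (0.16). Rab5c averaged 75.8 ± 4.83 CPM in neurons and 70.3 ± 1.23 CPM in NPCs and did not pass (0.11 ± 0.06, adjusted p = 0.117), although it passed without neuron replicate 1 at 0.18. Rab21, known from integrin traffic, and Rab14, which acts between the Golgi and endosomes, rose by 0.44 ± 0.07 and 0.39 ± 0.05. Rab31 fell to 94.8 ± 10.5 CPM in neurons, against 128 ± 0.818 CPM in NPCs (-0.43 ± 0.07), and its close relative Rab22a had a change of -0.12 ± 0.07 that did not pass, although it passed as lower by total count alone (-0.323) and with the filter of 5 CPM (-0.154). Rab20 had 2 and 0 counts in neurons, against 13 and 13 in NPCs, and passed, but its call was lost without neuron replicate 2 (edgeR adjusted p = 0.0615) and in DESeq2 (0.0505). Rab17, known from epithelia, had 0 and 0 counts in neurons and 14 and 1 counts in NPCs and was not tested.

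Rabs of recycling, polarised delivery and cilia held members called in each direction. All 11 were tested, 6 were higher in neurons, 4 were lower and Rab8a did not pass, the median change being 0.28. Rab25, among those 4, passed the filter on low counts only through its NPC libraries, so a call for it could only be as lower. The shares were 54.5% higher and 36.4% lower, the second close to the 36.9% of all genes and the first beside 35.8%. Rab10, which delivers membrane to the growing surface of axons and dendrites, had 489 and 468 CPM in neurons, against 308 and 324 CPM in NPCs, a log2 change of 0.60 ± 0.05 (adjusted p = 4.13e-08). Both neuron libraries were clearly higher. Rab11a and Rab11b, which mark recycling endosomes, rose by 0.67 ± 0.06 and 0.54 ± 0.05. Rab11a averaged 382 ± 16.8 CPM in neurons and 241 ± 7.78 CPM in NPCs, and Rab11b averaged 386 ± 13.2 CPM in neurons and 265 ± 6.10 CPM in NPCs. Rab12, known from the breakdown of transferrin receptor, had a log2 change of 0.36 ± 0.05. Rab35, of a recycling route at the plasma membrane, had one of 0.30 ± 0.08, and its call was lost without NPC replicate 1 (0.24). Rab23, an inhibitor of Hedgehog signalling, had one of 0.28 ± 0.06. Scaled by total count alone, Rab35 (0.0885) and Rab23 (0.0737) did not pass.

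Of the members of this group with higher levels, Rab8b and Rab28 were lower in neurons. Rab8 proteins carry vesicles from the Golgi to the plasma membrane and into cilia. Rab8b had 144 and 124 CPM in neurons, against 304 and 321 CPM in NPCs, a log2 change of -1.22 ± 0.07 (adjusted p = 3.85e-11). It was the 1 member with a mean of at least 5 CPM that fell by 2-fold or more, with Rab7l1 (mean 4.95 CPM) just under that level and Rab13 just under that fold. Its paralog Rab8a had 99.7 and 97.9 CPM in neurons, against 100.4 and 99.8 CPM in NPCs (-0.02 ± 0.05, adjusted p = 0.765). Scaled by total count alone, Rab8a passed as lower at -0.23, the same value as the median of all genes under that scaling. Rab13, which acts at tight junctions in epithelia, fell to 4.38 and 5.64 CPM in neurons, against 10.4 and 9.59 CPM in NPCs (-0.99 ± 0.13). Rab28, linked in humans to cone-rod dystrophy, fell by 0.21 ± 0.06 on the log2 scale. Rab25, known from epithelia, had 0 and 7 counts in neurons and 16 and 21 counts in NPCs. Its call was lost in DESeq2 (adjusted p = 0.107), without NPC replicate 2 (log2 change -1.965) and without neuron replicate 1 (-1.193).

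The late endosome, lysosome and autophagosome group held the largest rise and large falls. Of 7 members, 2 (Rab9b and Rab7) were higher in neurons, 3 (Rab9, Rab7l1 and Rab32) were lower and 2 did not pass, the median change being -0.16. Those shares, 28.6% higher and 42.9% lower among 7 genes, were near the 35.8% and 36.9% of all genes. Rab9b had 15.9 and 17.96 CPM in neurons, against 2.61 and 3.12 CPM in NPCs, a log2 change of 2.56 ± 0.12 (adjusted p = 1.01e-11), the highest among the 53 members tested. Its paralog Rab9, which returns receptors from late endosomes to the Golgi, had 42.2 and 43.7 CPM in neurons, against 46.7 and 49.2 CPM in NPCs, and was lower by a small margin (-0.16 ± 0.06, adjusted p = 0.033). In the test as described above, these were the only pair of the 15 paralog pairs compared with calls in opposite directions. Rab1b and Rab1 were a further one in the 3 settings in which Rab1b passed as lower. The call of Rab9 was lost in DESeq2 (adjusted p = 0.109), with no filter on low counts (0.0539) and without NPC replicate 1 (-0.20), NPC replicate 2 (-0.12) or neuron replicate 1 (-0.12).

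Rab7, which directs late endosomes to lysosomes, averaged 67.0 ± 5.11 CPM in neurons and 48.5 ± 1.41 CPM in NPCs (0.47 ± 0.07). Rab7l1, listed by RefSeq as Rab29 and known as a partner of the kinase Lrrk2, fell to 2.23 and 1.88 CPM in neurons, against 8.35 and 7.32 CPM in NPCs (-1.93 ± 0.15). Rab32, which serves lysosome-related organelles, fell to 0.655 and 0.639 CPM in neurons, against 3.39 and 3.57 CPM in NPCs (-2.42 ± 0.22). Rab38, its relative in pigment cells, had 2 and 8 counts in neurons and 13 and 15 counts in NPCs and did not pass (adjusted p = 0.0904). Rab38 passed as lower without neuron replicate 2 (log2 change -2.471) and by total count alone (-1.449). Rab24, linked to autophagy, averaged 96.5 ± 10.3 CPM in neurons and 92.2 ± 6.58 CPM in NPCs and did not pass (0.06 ± 0.07). It passed without neuron replicate 2, at 0.18.

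Rabs of regulated secretion were scarce in both groups. The 5 genes together had 4.08 and 3.27 CPM in neurons and 3.93 and 3.47 CPM in NPCs. Rab27b, Rab27a and Rab26, known from secretory granules, had log2 changes of 0.23 ± 0.21, -0.01 ± 0.44 and 0.48 ± 0.33 that did not pass, with standard errors above those of most members. Rab37 had 0.287 and 0.194 CPM in neurons, against 0.903 and 0.754 CPM in NPCs (-1.78 ± 0.40). It passed the filter on low counts only through its NPC libraries, so a call for it could only be as lower. Rab44 had 2 counts in 1 NPC library and 0 in the other 3 libraries. A count of 0 in a library was read as leaving room for an expected count of up to 3 at that depth. This limit covers counting error only.

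Both Rab40 genes, whose proteins carry a SOCS box that binds ubiquitin ligase subunits, were higher in neurons. Rab40b had 2.62 and 1.86 CPM in neurons, against 0.434 and 0.503 CPM in NPCs (2.25 ± 0.29, adjusted p = 2.6e-06), from 25 to 128 counts per library. Rab40c averaged 48.5 ± 1.72 CPM in neurons and 31.7 ± 1.60 CPM in NPCs (0.61 ± 0.07). Of the 3 Rab-like genes, Rabl3 fell to 13.9 ± 1.62 CPM in neurons, against 20.9 ± 1.24 CPM in NPCs (-0.59 ± 0.09). Rabl2 and Rabl5, both linked to transport in cilia, had changes of -0.14 ± 0.07 and -0.03 ± 0.08 that did not pass, and both passed as lower by total count alone (-0.35 and -0.24).

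The members under 5 CPM that fell did so beside markers of other cell types that the green sort could hold. Of 9 endothelial markers 9 were lower in neurons, with a summed level of 8.27 to 8.35 CPM in neurons and 239 to 244 CPM in NPCs. The same was true of 6 of 6 pericyte markers (7.01 to 7.74 CPM in neurons, 207 to 211 CPM in NPCs) and 6 of 6 oligodendrocyte precursor markers (5.59 to 5.71 CPM in neurons, 184 to 189 CPM in NPCs). It also held for 9 of 9 microglia markers (18.3 to 19.0 CPM in neurons, 41.1 to 41.4 CPM in NPCs) and 6 of 6 erythroid markers (308 to 315 CPM in neurons, 1887 to 2294 CPM in NPCs). The erythroid list holds near-identical globin copies, whose reads may be counted for each copy. None of these markers was at 0 in any library. Their part in the falls of the 6 low members (Rab32, Rab7l1, Rab37, Rab36, Rab20 and Rab25), and of Rab13 and Rab8b, was not tested.

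Paralogs were also compared by the ratio of their counts within each library, which does not depend on the scaling between libraries. Of 15 pairs, 11 had ratios that did not overlap between groups. No such share was computed for pairs of other genes, and of all single genes tested 86% did not overlap. The count is therefore not read as a trait of Rab paralogs. With 2 libraries against 2, the exact permutation test (two-sided) cannot go below p = 0.333, so the shifts are a description. Each shift is the mean log2 ratio in neurons minus that in NPCs, and its standard error joins those of both genes as if independent. The ratio of Rab9b to Rab9 was 0.376 and 0.411 in neurons, against 0.0558 and 0.0633 in NPCs, a shift of 2.73 ± 0.14. Rab33a to Rab33b stood at 1.13 and 1.19 in neurons, against 0.423 and 0.389 in NPCs, a shift of 1.51 ± 0.09. Rab33a thus had the fewer counts of the pair in NPCs and the more in neurons, but the order in counts depends on gene length. Per kilobase of exon, Rab33a stood above Rab33b in both groups (66.5 against 19.1 CPM in neurons, 20.8 against 17.0 CPM in NPCs). Rab8b to Rab8a was 1.44 and 1.27 in neurons, against 3.02 and 3.21 in NPCs, a shift of -1.20 ± 0.08. Rab40b to Rab40c shifted by 1.63 ± 0.30 at low counts of Rab40b. Smaller shifts were those of Rab1b to Rab1 (-0.51 ± 0.08), Rab6b to Rab6a (0.38 ± 0.09), Rab22a to Rab31 (0.32 ± 0.09), Rab5b to Rab5a (0.31 ± 0.08), Rab4b to Rab4a (-0.26 ± 0.11), Rab2b to Rab2a (-0.25 ± 0.08) and Rab11b to Rab11a (-0.12 ± 0.08). The ratios of the Rab5c, Rab27b, Rab32 and Rab39b pairs overlapped between groups.

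**Figure D3:**
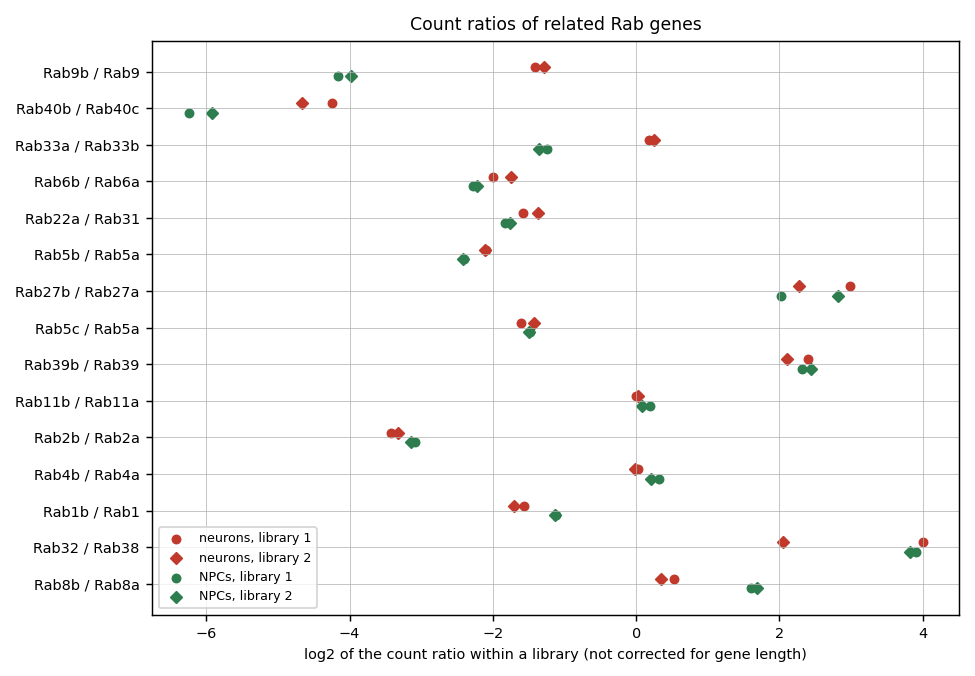
Log2 of the count ratio of related Rab genes within each library, for 15 pairs ordered by their shift in neurons, with red symbols for neuron libraries and green symbols for NPC libraries. Ratios are not corrected for gene length, so the distance between red and green matters and not the position. Rab9b to Rab9 lies furthest to the right of its NPC values (shift 2.73), and Rab8b to Rab8a lies to the left (-1.20).

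The start regions of the 3 pairs with the widest shifts at higher counts are shown because the paralogs differed in their course. They are the 150 bases before the start site, from RefSeq's promoter table of build GRCm38.p6, printed 5′ to 3′ on the strand of the gene. Capitals mark matches on either strand to the motifs searched, which were GGGCGG as the GC box, CCAAT as the CCAAT box, TATAAA as the TATA box, CACGTG and also CAGCTG as E-boxes, and TGACGTCA as the CRE. The regions are chrX:136868557-136868706 on the minus strand (Rab9b), chrX:166479868-166480017 on the minus strand (Rab9), chrX:48519135-48519284 on the plus strand (Rab33a), chr3:51483816-51483965 on the plus strand (Rab33b), chr9:66919706-66919855 on the minus strand (Rab8b) and chr8:72161050-72161199 on the plus strand (Rab8a).
Rab9b: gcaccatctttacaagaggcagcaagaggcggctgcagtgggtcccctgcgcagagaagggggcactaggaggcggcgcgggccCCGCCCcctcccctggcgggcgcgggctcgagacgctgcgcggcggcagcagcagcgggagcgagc
Rab9: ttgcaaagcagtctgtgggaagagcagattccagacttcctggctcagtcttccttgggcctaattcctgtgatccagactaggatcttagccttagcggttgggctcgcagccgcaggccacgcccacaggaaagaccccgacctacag
Rab33a: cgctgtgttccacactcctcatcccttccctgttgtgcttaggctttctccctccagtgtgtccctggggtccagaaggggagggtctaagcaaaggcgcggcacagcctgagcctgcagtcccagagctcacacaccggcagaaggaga
Rab33b: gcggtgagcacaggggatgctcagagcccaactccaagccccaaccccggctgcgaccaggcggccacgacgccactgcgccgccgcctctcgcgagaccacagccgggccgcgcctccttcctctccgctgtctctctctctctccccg
Rab8b: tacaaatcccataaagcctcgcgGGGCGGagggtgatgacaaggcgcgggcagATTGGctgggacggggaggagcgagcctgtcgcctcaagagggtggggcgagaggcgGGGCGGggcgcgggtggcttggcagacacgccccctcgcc
Rab8a: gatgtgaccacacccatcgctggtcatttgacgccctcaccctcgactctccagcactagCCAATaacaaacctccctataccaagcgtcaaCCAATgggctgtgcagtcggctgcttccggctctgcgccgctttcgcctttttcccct

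In these windows Rab9b had 1 GC box match and 16 CG dinucleotides, and Rab9 had no match and 5 CG dinucleotides. Rab33a and Rab33b had no match, with 4 and 16 CG dinucleotides. Rab8b had 2 GC box matches, 1 CCAAT match and 15 CG dinucleotides, and Rab8a had 2 CCAAT matches and 9 CG dinucleotides. The table held 57 promoters of 46 members. Of these 57, 31 (54.4%) had a GC box, beside 28.6% of 32851 promoters in the table, and 17 (29.8%) had a CCAAT match, beside 24.5%. TATAAA was found in 1 of the 57, beside 7.57% of all. The shares of CACGTG (3 of 57), CAGCTG (6 of 57) and TGACGTCA (2 of 57) stood beside 4.30%, 8.39% and 1.36% of all. The median number of CG dinucleotides was 10 in members' promoters and 4 in all. The 32851 promoters were not matched to the members by level in these cells, so these differences are not shown to be particular to Rab genes. A match is a string of letters and not a measured binding site. Rab9b, Rab9, Rab33a and Rab39b lie on the X chromosome, and the 56 members are spread over 20 chromosomes.

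Genes that control or read Rab proteins were described from lists of 136 genes, of which 134 were found and tested. Of these, 62 (46.3%) were higher in neurons and 43 (32.1%) lower, and the median change was 0.14. The lower genes include Mlph, Sytl3, Sytl4 and Dennd2d, which passed the filter on low counts only through their NPC libraries. A call for them could only be as lower. The shares for all genes are those given above (35.8% and 36.9%). Scaling by total count alone gave 48 higher and 55 lower.

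Among the 7 genes that prepare Rabs for membranes or lift them off, 3 were higher and 2 lower. Those shares were 42.9% and 28.6%, beside 35.8% and 36.9% of all genes tested. Rabac1, a prenylated Rab acceptor, had 46.0 and 48.2 CPM in neurons, against 34.2 and 31.9 CPM in NPCs, and rose by 0.51 ± 0.07 (adjusted p = 3.09e-06). Chml, a Rab escort protein, fell by 1.09 ± 0.11 on the log2 scale, while Chm, its paralog, was at -0.03 ± 0.06 and did not pass. Rabggtb, a subunit of the enzyme that attaches the lipid anchor, had a log2 change of -0.30 ± 0.07.

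Of 43 exchange factor genes tested, 20 were higher in neurons and 17 lower, and the median (0.14) and the mean (-0.19) had opposite signs. The 17 and that mean include Dennd2d (0.0614 and 0 CPM in neurons, 0.243 and 0.318 CPM in NPCs). It passed the filter on low counts only through its NPC libraries, so it could only be called as lower. The shares were 46.5% higher and 39.5% lower, beside 35.8% and 36.9% of all genes. Rabgef1, which activates Rab5, averaged 47.2 ± 1.57 CPM in neurons and 27.4 ± 1.19 CPM in NPCs (0.78 ± 0.07). Trappc3, a subunit of the TRAPP complex that activates Rab1, averaged 117 ± 1.85 CPM in neurons and 68.5 ± 2.09 CPM in NPCs (0.77 ± 0.06). St5, a DENN domain protein, fell to 3.52 ± 0.200 CPM in neurons, against 13.2 ± 0.524 CPM in NPCs (-1.90 ± 0.12). Rin2, an exchange factor of Rab5, fell to 3.87 ± 0.644 CPM in neurons, against 13.5 ± 0.165 CPM in NPCs (-1.81 ± 0.12).

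Of 37 genes for GTPase-activating proteins, 19 were higher in neurons and 9 lower, with a median of 0.22. That is 51.4% and 24.3%, beside 35.8% and 36.9% of all genes. Rabgap1l had 289.6 and 308 CPM in neurons, against 58.0 and 63.9 CPM in NPCs (2.29 ± 0.06, adjusted p = 8.63e-15), and Tbc1d30 rose by 2.18 ± 0.11. The Rabgap1l values of the neuron libraries were far above those of the NPC libraries. Tbc1d4, which acts on Rab10 in the traffic of glucose transporters in fat and muscle, fell to 9.85 ± 0.753 CPM in neurons, against 31.7 ± 1.32 CPM in NPCs (-1.69 ± 0.09). Tbc1d5, known from retromer traffic, had a log2 change of -0.58 ± 0.11.

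Of 47 effector genes, 20 were higher in neurons, 15 were lower and 12 did not pass, with a median of 0.07. Among the 15, Mlph, Sytl3 and Sytl4 passed the filter on low counts only through their NPC libraries, so they could only be called as lower. Shares of 42.6% higher and 31.9% lower stood beside 35.8% and 36.9% of all genes. Rufy3, known for its part in axon growth, averaged 483 ± 2.97 CPM in neurons and 137 ± 2.69 CPM in NPCs (1.81 ± 0.05). Rab11fip4, which binds Rab11, had 13.5 and 19.7 CPM in neurons, against 6.55 and 7.09 CPM in NPCs (1.28 ± 0.14). Plin3, which binds Rab9 and lipid droplets, fell to 4.91 ± 0.779 CPM in neurons, against 19.2 ± 1.69 CPM in NPCs (-1.96 ± 0.12). Rilpl1, which binds phosphorylated Rab8 and Rab10, had a log2 change of -0.99 ± 0.10.

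**Figure D4:**
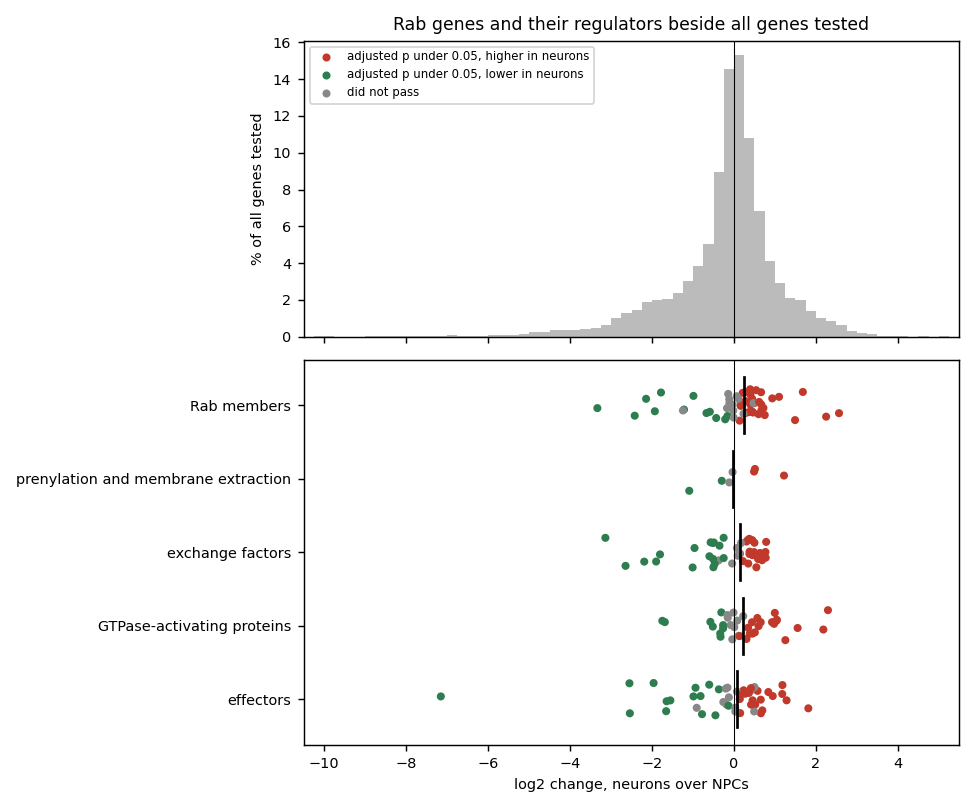
Top: log2 changes of all 15292 genes tested, as the percentage of genes in bins of 0.25. Bottom: the 53 tested Rab members and the 4 lists of genes that act on them, 1 point per gene, coloured as passed higher in neurons (red), passed lower in neurons (green) or did not pass (grey), with a black line at the median. The members' median of 0.23 lies to the right of 0, and points of every set lie on both sides. The one furthest left is Mlph, an effector of Rab27 (-7.15 ± 1.31). It had 0 CPM in both neuron libraries and 0.417 and 0.235 CPM in NPCs, so its position is not a measured fold.

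Some values may include reads of other genes. In GENCODE M21, 18 of the 56 members share an exon with another gene, 13 of them with a gene on the other strand, among them Rab6a, Rab2b, Rab5a, Rab24, Rab10 and Rab11b. No source used here says whether counting used strand, so such reads cannot be told apart.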

How the data were processed

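Gene counts of 4 RNA-seq libraries were used, 2 of neurons and 2 of NPCs, grouped by their titles. The authors' table, as deposited, gives an estimated count for 23240 genes in each library. All 88416 values below 10000 were multiples of 1 base of a 101-base read, within 0.01 base. The submitters' processing notes name TopHat 1.2.0, CASAVA 1.9, SAMtools 0.1.18 and build mm9. No counter, annotation or strand setting is given in the sources used here, and reads shared by near-identical copies are uncertain.

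Counts were rounded, filtered with filterByExpr and scaled with TMM. The groups were tested with edgeR 4.0.16 (quasi-likelihood, R 4.3.3), unpaired, with Benjamini-Hochberg adjustment over 15292 genes and a threshold of 0.05. Standard errors were derived from the log2 change and its F statistic. The biological coefficient of variation was 4.89%, with 2 residual degrees of freedom and a prior of 13.9. Chi-square per gene between duplicates was 14.2 for neurons and 4.57 for NPCs, so duplicates differed by more than counting noise. On simulated counts of 15160 genes for this comparison, 30 of 50 genes changed 1.25-fold and 45 of 49 changed 2-fold were recovered, and 10 of 176 calls were false. The simulation started from NPC means, used the same dispersion for every gene and changed only a small part of the genes. In the data 72.6% of the genes tested were called, so these rates may not carry over. Alternatives used limma 3.58.1 and DESeq2 1.42.0 beside edgeR.

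Members, lists, markers and paralog pairs were chosen with earlier results of these data known. Values in every library were given for members changed at least 2-fold with a mean of at least 5 CPM, for paralogs called in opposite directions and for the 2 members with the highest mean. Other members, and Chm, were added afterwards. Of each list of regulators, the 2 called genes with the largest rise and the 2 with the largest fall at 5 CPM or above were named, except 1 gene that is not reported here. Rab3 genes and their regulators were left out. Of 136 listed regulators, Trappc11 and Trappc13 were not analysed here, nor was the neuron marker Map2. RefSeq matched all 56 members, 3 under another symbol.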

Additional observations from a re-analysis of the deposited data

How the results depend on the processing

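Of the 53 tested members, 34 kept their direction and their side of the threshold under every one of the 11 alternatives in which they were tested. Of 574 log2 changes computed, 527 did so. Scaling by total count alone changed the most, with 19 members lower in neurons in place of 12 and 22 higher in place of 29, and it turned Rab33b (-0.0389), Rab39b (-0.0449) and Rab5a (-0.0694) from higher to lower without a call. That scaling moved the median of all genes from -0.02 to -0.23. Without 1 replicate, 24 to 30 members were higher and 10 to 13 lower, and 9773 to 11252 of all genes were called, beside 11108. Counts of members ranged from 25 to 29 higher and 10 to 12 lower under the other tools, filters and RLE size factors, and 29 and 11 without the Rab-like genes. The duplicate numbers share only a number (correlation of deviations 0.03), and with the replicate block 29 members were higher and 12 lower, as without it, and 11206 of all genes were called. Depth limits the scarce members: Rab20, Rab25 and Rab38 had standard errors of 0.91, 0.74 and 0.64, and Rab27a and Rab37 of 0.44 and 0.40.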
